A study of Canis lupus with 23 samples.

Results

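One canine tumor, deposited with the diagnosis histiocytic sarcoma, was set beside the 4 sarcomas of the same series, which carry the diagnoses Sarcoma (2 tumors, Sarcoma 0 and Sarcoma 1) and STS (2 tumors, STS 0 and STS 1). These 5 tumors, chosen by their titles, are part of 23 tumors in all, 1 array per tumor; the other 18 are 7 lymphomas, 5 melanomas, 3 TCC (bladder transitional cell carcinoma), 1 hepatocellular carcinoma, 1 nasal tumor and 1 HSA (hemangiosarcoma, a tumor of vessel lining). The dogs were pets with untreated, naturally occurring cancer, and total RNA came from a biopsy kept in RNAlater. According to the study, biopsies entered array analysis only when a pathologist found mostly tumor nuclei and little necrosis and the RNA was of high integrity.

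No age, breed, body site or treatment arm separates the 5 tumors in the labels, and the kind of sarcoma behind the titles Sarcoma and STS is not stated there. Each tumor is a mixed piece of tissue from 1 dog, so RNA of neoplastic cells, infiltrating leukocytes and adjacent host tissue was measured together. In such bulk RNA, more cells of a type and more RNA per cell cannot be told apart. The study also enrolled a case entered as histiocytic sarcoma whose biopsy was read as panniculitis, an inflammation of subcutaneous fat, and which failed review. By the study's account, biopsies that failed review went no further and a histiocytic sarcoma was among the profiled tumors; the sample labels carry no case numbers.

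Histiocytic sarcoma is an aggressive tumor of dogs that arises from cells of the macrophage and dendritic lineage. Macrophages engulf particles through scavenger and Fc receptors and kill with an oxidase, and they depend on CSF1 and its receptor. Dendritic cells present antigen on MHC class II molecules to T cells, and canine histiocytic tumors are classed in pathology by leukocyte antigens such as CD1, CD11c (ITGAX), MHC class II and CD204 (MSR1). Soft tissue sarcomas, in contrast, come from mesenchymal cells and commonly resemble fibroblasts or vessel wall cells.

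Levels are given as log2(signal + 16), averaged over the probesets of a gene, so that 1 unit is a doubling of signal + 16 and the lowest possible value is 4. Levels of different genes are not compared with each other, because each rests on its own probes. The histiocytic sarcoma was called above the sarcomas where it exceeded the highest of the 4 by at least 1 log2 unit, and below where it lay at least 1 unit under the lowest. With 1 tumor there is no replicate on that side and no p-value; the spread among the 4 sarcomas is given in its place.

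Across the 5 arrays the median signal was 97.9 to 131, with 111 in the histiocytic sarcoma, and signals under 16 made up 19.8% to 23.9% of an array, with 22.1% in the histiocytic sarcoma. The mean log2 ratio of 3′ to 5′ control probes was 6.44 in the histiocytic sarcoma and 6.10 to 8.62 in the sarcomas. Of 15115 genes, 461 (3.05%) lay above the sarcomas and 379 (2.51%) below, and over all genes the median difference from the sarcoma mean was -0.04. These counts lean on single sarcomas: without Sarcoma 0 they were 807 and 584, and the count below was 622 without Sarcoma 1 and 598 without STS 0.

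The markers CCL13, CSF1R and AIF1 were, like the lists, chosen with earlier results of these data known, so their levels do not test the label. Not all of them cleared the sarcoma range by the set margin. CCL13, a chemokine that draws monocytes, measured 11.10 in the histiocytic sarcoma, against 6.99 and 6.0 in Sarcoma 0 and 1 and 4.71 and 7.72 in STS 0 and 1. CSF1R, the receptor through which CSF1 keeps macrophages alive, measured 12.35, against 11.38, 10.61, 9.90 and 9.52 in the sarcomas in the same order (Sarcoma 0, Sarcoma 1, STS 0, STS 1, kept below). AIF1, a calcium-binding protein of macrophages (IBA1), measured 13.04, against 12.08, 11.49, 9.87 and 8.99. The histiocytic sarcoma was the highest of the 5 for each marker, by 3.39 for CCL13 and by 0.97 for both CSF1R and AIF1. Among all 23 tumors CCL13 stood 3.28 above every other tumor and CSF1R was highest, while AIF1 was exceeded in 2 others, with 13.88 in the HSA. Without Sarcoma 0, CSF1R and AIF1 passed the margin, at 1.74 and 1.55 over the highest remaining sarcoma.

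**Figure D1:**
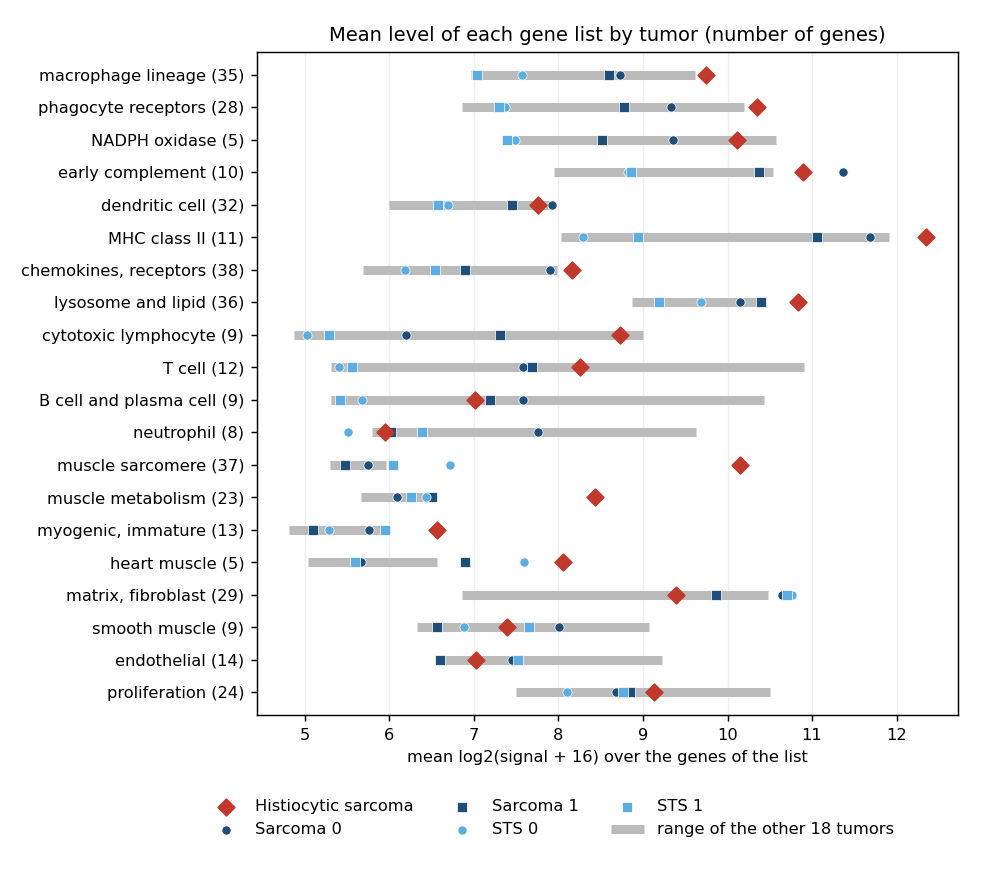
Mean log2(signal + 16) of the genes of each list (rows, number of genes in brackets) in the histiocytic sarcoma (red diamond) and the 4 sarcomas (blue), with the range of the other 18 tumors as a grey bar. The histiocytic sarcoma lies right of every other tumor for the 3 skeletal muscle lists and, by less, for the heart, macrophage, phagocyte, MHC class II, chemokine and lysosome lists, and below the 4 sarcomas for the matrix list (9.40 against 9.87 to 10.76).

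Genes of macrophages and phagocytes gave the largest number of immune genes above the sarcomas when their 4 lists were joined, although the MHC class II and cytotoxic lymphocyte lists had larger shares above (45.5% and 44.4%). Over the 4 lists (macrophage lineage, phagocyte receptors and adaptors, NADPH oxidase, early complement), 28 of 78 genes (35.9%) lay above and 0 below, beside 3.05% above over all genes. The median difference of the 78 genes from the sarcoma mean was 2.08, beside -0.04 over all genes, and 60 of them were highest in the histiocytic sarcoma among the 5 tumors without any margin, beside 19.7% of all genes. In all 23 tumors the histiocytic sarcoma was the highest for 28 of the 78, beside 3.74% of all genes. The list mean was 10.13 in the histiocytic sarcoma, against 9.32 in Sarcoma 0, 8.88 in Sarcoma 1, 7.65 in STS 0 and 7.39 in STS 1. The sarcomas were thus unequal: in 56 of the 78 genes both tumors titled Sarcoma exceeded both titled STS, a pattern that 2772 of the 15115 genes showed. Without Sarcoma 0 the count above was 50 in place of 28.

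Scavenger and complement receptors, by which macrophages take up debris and sense inflammation, were among the genes above. MSR1 (CD204), the scavenger receptor for modified lipoproteins, measured 12.68 in the histiocytic sarcoma, against 10.52, 10.35, 9.35 and 8.72. MRC1, the mannose receptor, measured 13.19, against 12.08, 11.71, 11.66 and 9.54. CD163, the receptor for haemoglobin bound to haptoglobin, measured 10.07, against 8.00, 8.74, 8.38 and 6.51. All 3 were highest of the 23 tumors in the histiocytic sarcoma, but for CD163 the HSA was close behind at 10.05.

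C3AR1, a receptor for the complement fragment C3a, measured 11.52, against 9.39, 9.52, 7.97 and 7.34. For C5AR1, the receptor for C5a, the level was 9.67, against 7.08, 6.80, 7.47 and 7.15. TREM1, an activating receptor of inflammatory phagocytes, measured 12.06, against 8.15, 7.62, 6.37 and 7.72. The 3 genes did not overlap with any of the other 22 tumors, and TREM1, at 3.91 above the highest sarcoma, was the only gene of the 78 among the 20 farthest above the sarcomas.

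In the macrophage lineage list 13 of 35 genes lay above, beside 3.05% of all genes, and the other 22 were within the margin. SPI1 (PU.1), the transcription factor that macrophage development requires, measured 9.38, against 7.71, 7.66, 5.68 and 6.99. CD68, a lysosomal membrane protein of macrophages, measured 9.68, against 8.32, 7.56, 6.62 and 6.14. TIMD4, which binds phosphatidylserine on dying cells, measured 12.15, against 10.89, 10.20, 8.34 and 7.28. The costimulatory ligand CD86, the natural resistance transporter SLC11A1, the membrane protein ADGRE1 and the glucan receptor CLEC7A were also called above, by 1.67, 1.48, 1.28 and 1.09. CD14, the coreceptor for bacterial lipopolysaccharide, was not: it measured 11.45, against 11.57, 9.43, 9.63 and 8.73, and Sarcoma 0 was the higher. Without Sarcoma 0 it was 1.83 over the next.

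In the phagocyte list 13 of 28 genes (46.4%) lay above, beside 3.05% of all genes. Many of its members are shared with lymphocytes. Of the 28, 7 (25%) were highest of the 23 tumors in the histiocytic sarcoma, beside 3.74% of all genes. In 18 of the other 21 a lymphoma was the highest. CORO1A and DOCK2, both called above, each took place 8 of 23, with lymphomas at 11.32 and 11.44. ITGAX (CD11c), the integrin chain carried by dendritic cells and many macrophages, measured 10.14, against 7.67, 5.68, 6.20 and 6.89. FCGR1A, the high-affinity receptor for IgG, measured 11.99, against 10.36, 9.42, 7.89 and 7.56. CYBB, the membrane subunit of the oxidase that makes superoxide, measured 13.86, against 11.17, 11.06, 9.79 and 8.25. It was the only 1 of 5 oxidase genes (20%) called. In these 3 genes no other tumor of the series reached the histiocytic sarcoma.

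Signaling partners shared by many leukocytes behaved less evenly. TYROBP (DAP12), the adaptor of TREM receptors, measured 13.04, against 12.40, 11.29, 10.63 and 9.21, within 1 unit of Sarcoma 0 and 1.75 over the next. ITGB2, the common chain of the leukocyte integrins, measured 7.74, against 6.85, 6.38, 5.33 and 5.54, and ITGAM (CD11b) 7.54, against 7.46, 7.07, 6.26 and 4.25. PTPRC (CD45), on all nucleated blood cells, measured 12.65, against 10.71, 10.69, 8.03 and 8.50. PTPRC and ITGAL (CD11a), which was called above by 1.40, were each exceeded in lymphomas, whose highest values were 13.58 and 11.63.

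Complement C1q genes, which tissue macrophages make, were high, but higher still in another tumor. C1QA measured 12.66 in the histiocytic sarcoma, against 11.37, 11.78, 10.03 and 8.37. C1QB measured 12.03, against 10.77, 11.20, 8.92 and 7.82. C1QC measured 13.03, against 11.75, 12.01, 10.22 and 8.24, and alone of the 10 genes of its list passed the margin, at 1.01. That is 10% of the list, beside 3.05% above over all genes. The HSA exceeded the histiocytic sarcoma in all 3, at 13.38, 12.43 and 13.56, and C1QA and C1QB passed the margin over the sarcomas when Sarcoma 1 was left out, at 1.28 and 1.27.

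A further 4 macrophage genes, named after their values were seen, were not above the sarcomas. SPIC, the transcription factor of splenic red pulp macrophages in mice, measured 4.16 in the histiocytic sarcoma, near the floor of the scale, against 7.32, 7.14, 4.25 and 4.26, and 12.32 in the HSA. SLC40A1 (ferroportin), the iron exporter, measured 8.03, against 8.61, 9.16, 9.46 and 8.38, and 12.76 in the HSA. CD5L, a secreted macrophage protein, measured 8.53, against 5.57, 10.82, 5.59 and 5.12, and 12.21 in the HSA; only Sarcoma 1 among the sarcomas was high. SIGLEC1 (CD169), a sialic acid receptor, measured 6.59, against 7.57, 8.19, 7.48 and 6.52, and 9.31 in the HSA. The HSA was the highest of the 23 tumors in these 4 genes, and the histiocytic sarcoma was far below it in each, unlike in the C1q genes and CD163.

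**Figure D2:**
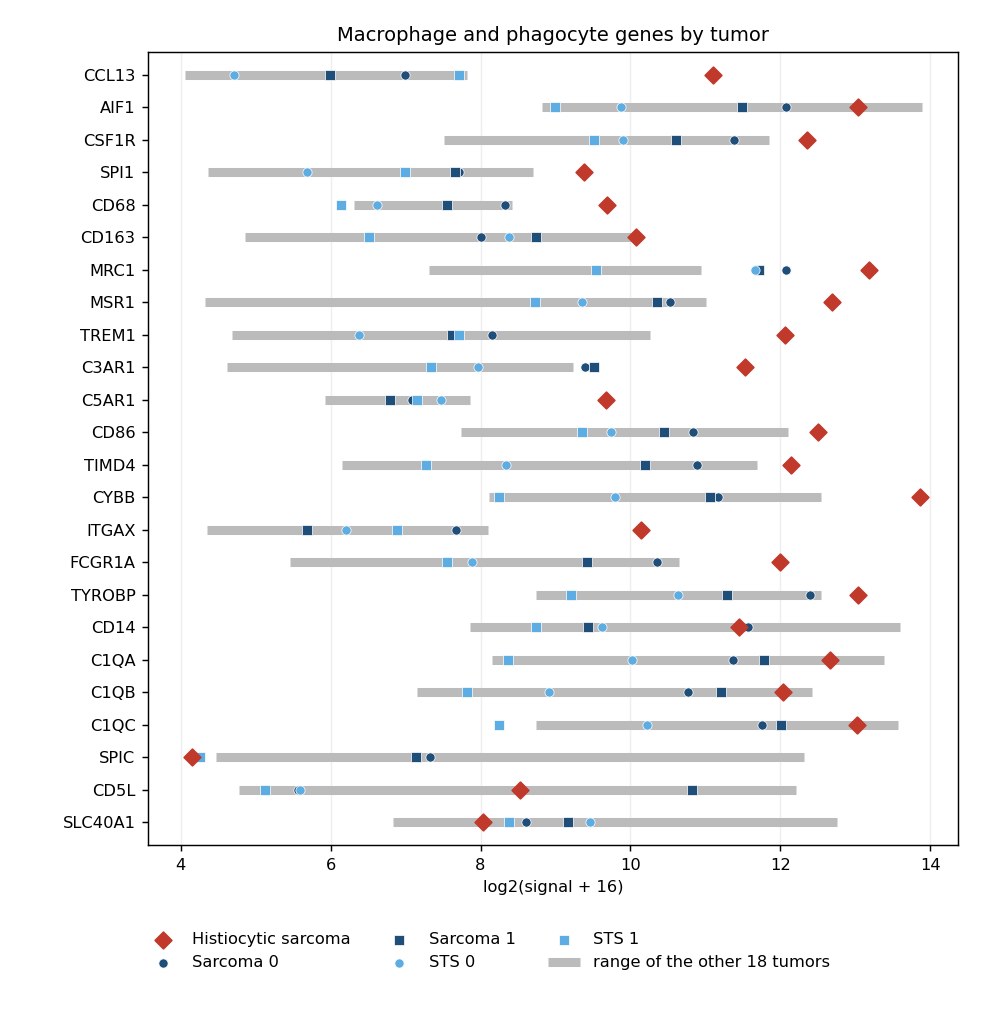
Levels, as log2(signal + 16), of macrophage and phagocyte genes (rows) in the histiocytic sarcoma (red diamond) and the 4 sarcomas (blue), with the range of the other 18 tumors as a grey bar. The diamond stands right of all other tumors for CCL13, MSR1, TREM1, C3AR1, CYBB and ITGAX, inside the grey bar for the C1q genes, and near the floor for SPIC (4.16).

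Dendritic cell genes gave a smaller and mixed group: 4 of 32 (12.5%) lay above and 1 below, beside 3.05% and 2.51% of all genes, and the median difference was 0.80. A share of 1 in 32 below is about that of all genes. IDO1, which degrades tryptophan and is induced in dendritic cells by interferon, measured 11.06, against 7.65, 8.25, 6.26 and 5.99. CD80, the costimulatory partner of CD86, measured 10.20, against 8.91, 8.20, 7.92 and 7.72. XCR1, the chemokine receptor of cross-presenting dendritic cells, measured 8.84, against 7.61, 7.18, 4.28 and 6.83. In each of the 3, both STS tumors and both tumors titled Sarcoma lay clear of the histiocytic sarcoma. CD1C, a lipid-presenting molecule, was the fourth, at 6.66, against 4.80, 5.51, 4.13 and 4.36. The calls of CD80 and CD1C depended on processing: with the brightest probeset CD80 was 0.78 over the highest sarcoma, and with a pseudocount of 64 CD1C was 0.67 over it. CD80 and XCR1 were highest of the 23 tumors in the histiocytic sarcoma, whereas IDO1 reached 12.73 and CD1C 8.15 in a lymphoma.

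Genes that define the conventional dendritic lineage did not pass the margin in either direction. FLT3, the receptor that drives dendritic cell development, measured 8.06, against 9.02, 7.17, 7.31 and 5.76. ZBTB46, a transcription factor of conventional dendritic cells, measured 4.51, against 5.59, 4.89, 5.52 and 5.13. BATF3, needed for the cross-presenting subset, measured 8.46, against 8.27, 6.60, 5.95 and 8.28. ZBTB46 was thus low in all 5 tumors. BATF3 was level with STS 1 and Sarcoma 0, and took place 2 of the 23 tumors, after Lymphoma 5 at 8.98.

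CCR7, the receptor that takes mature dendritic cells to lymph nodes, measured 6.05, against 6.16, 6.44, 5.20 and 4.36. LAMP3, a lysosomal protein of mature dendritic cells, measured 8.97, against 8.32, 8.17, 5.30 and 4.57. CD209 (DC-SIGN), a lectin of dendritic cells and macrophages, measured 10.77, against 7.37, 10.11, 9.29 and 5.33. Among the 5 tumors LAMP3 and CD209 were thus highest in the histiocytic sarcoma. Sarcoma 0 and Sarcoma 1 were within 1 unit for LAMP3, and Sarcoma 1 for CD209. Among all 23 tumors LAMP3 took place 8 and CD209 place 2, and lymphomas reached 13.33 and 11.16. FSCN1 (fascin), an actin-bundling protein of mature dendritic cells that fibroblastic tumors also make, measured 9.0, against 10.22, 11.60, 11.30 and 10.06, and was the gene called below, a call lost with a pseudocount of 64 (0.99 under the lowest sarcoma) and with arrays centred (0.92). THY1 (CD90), present on dermal but not epidermal dendritic cells of dogs and also on fibroblasts, measured 8.20, against 9.11, 7.51, 10.47 and 8.79. Neither CCR7 nor THY1 left the sarcoma range, and CD209 was 1.48 over the next sarcoma once Sarcoma 1 was left out.

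MHC class II genes formed the other part of the antigen-presenting group, with 5 of 11 above (45.5%, beside 3.05% of all genes), 0 below and a median difference of 2.17. DLA-DMA, a chain of the factor that loads peptides onto class II molecules, measured 13.29, against 11.68, 11.38, 9.09 and 8.87. DLA-DQA1, a chain of a presenting molecule, measured 14.12, against 12.97, 11.95, 9.22 and 10.01. DLA-DMB, DLA-DOB and DLA-DQB1 were the others called, by 1.25, 1.34 and 1.06 over the highest sarcoma. DLA-DRA, the alpha chain of the DR molecule, measured 15.02, against 14.75, 13.69, 11.43 and 11.90, and CD74, the invariant chain, 14.59, against 14.72, 13.76, 10.78 and 11.43.

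The class II list mean was 12.35 in the histiocytic sarcoma, the highest of the 23 tumors, against 11.69, 11.05, 8.29 and 8.94. Both STS tumors were far below both titled Sarcoma in this list, and without Sarcoma 0 the count above was 8 in place of 5, with DLA-DRA among the genes gained. DLA genes are close copies of one another, so probes may take signal from a neighbouring gene, and with the brightest probeset of each gene the count was 3.

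Of 38 genes for chemokines, which attract leukocytes, and their receptors, 8 (21.1%) lay above and 0 below, beside 3.05% and 2.51% of all genes, and the median difference was 0.99. CCL7, another attractant of monocytes, measured 10.71, against 7.01, 4.27, 4.75 and 7.27. CCL8, of the same family, measured 10.66, against 9.31, 7.77, 4.34 and 7.07. CCL2, the archetype of that family, was not above: it measured 13.03, against 14.04, 12.86, 9.47 and 13.53. Within this family of monocyte attractants, CCL7, CCL8 and CCL13 therefore stood above the sarcomas while CCL2 lay inside their range.

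CCL3 and CCL4, related chemokines that attract monocytes and lymphocytes, measured 10.45, against 6.23, 7.76, 5.48 and 6.13, and 11.27, against 6.93, 8.72, 5.30 and 4.34. CXCL10, an interferon-induced attractant of T cells, measured 13.08, against 9.37, 10.51, 6.29 and 5.71. CCL16 was above by 1.92, at 6.59, a low level, and by 0.98 with a pseudocount of 64. A further tumor of the series was higher in each of these genes, at 12.47 in CCL3, 11.74 in CCL4 and 13.79 in CXCL10. For CCL16 the hepatocellular carcinoma reached 13.76.

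Among 36 lysosome and lipid genes, 7 (19.4%) lay above and 0 below, beside 3.05% and 2.51% of all genes, with a median difference of 0.66. TFEC, a transcription factor of the MITF family expressed in macrophages, measured 12.74, against 9.20, 9.70, 7.93 and 7.12. SPP1 (osteopontin), a secreted matrix-binding protein of activated macrophages, measured 13.23, against 10.16, 11.10, 10.57 and 9.96. CD36, a fatty acid and lipoprotein receptor, measured 11.39, against 8.58, 8.35, 8.04 and 7.41. None of the 4 sarcomas came within 2 units in these 3 genes. CTSS, the protease that trims the class II invariant chain, measured 13.70, against 12.38, 12.32, 11.01 and 9.72. TFEC, SPP1 and CTSS were highest of the 23 tumors in the histiocytic sarcoma, and CD36, which fat and muscle also make, took place 3. The others called were CTSC, CHI3L1 and ABCG1, the last of which lost its call with a pseudocount of 64 and with the brightest probeset (0.57 and -0.01 over the highest sarcoma).

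**Figure D3:**
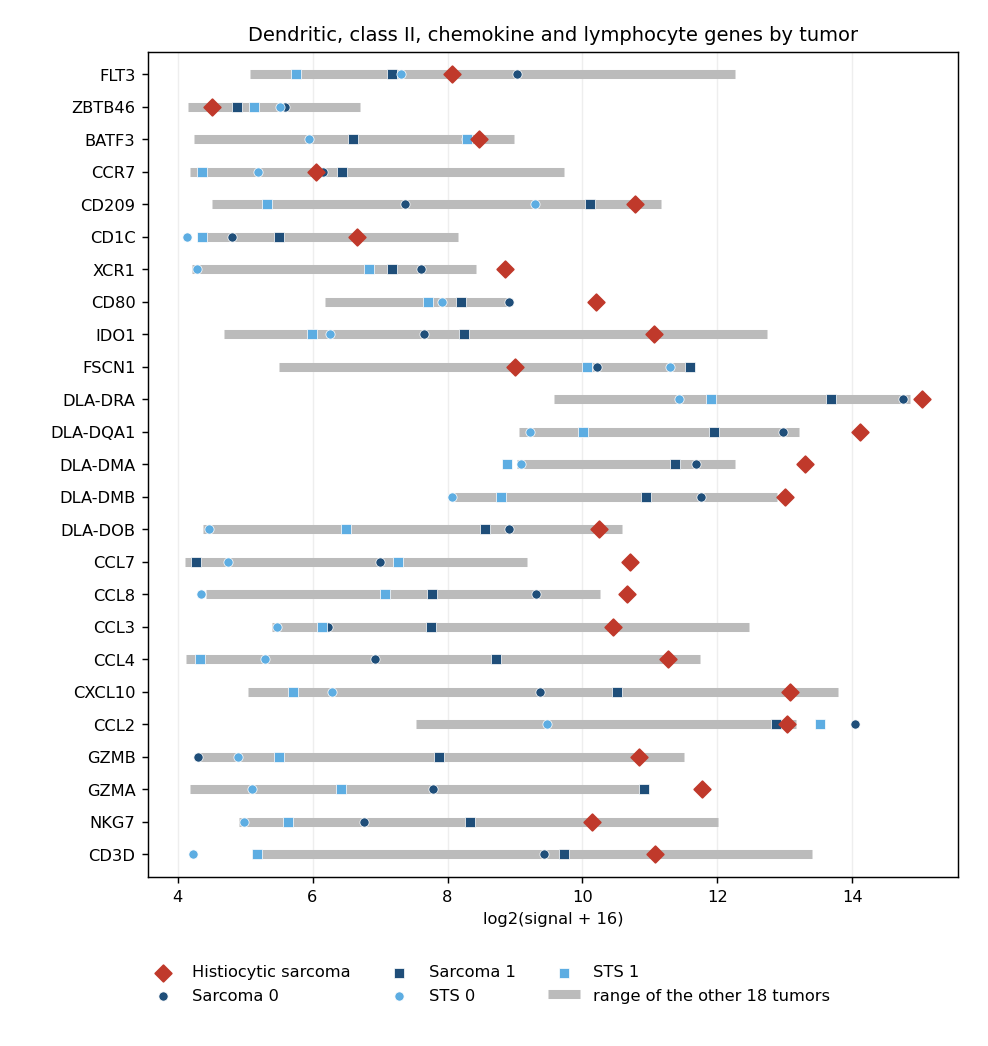
Levels, as log2(signal + 16), of dendritic, MHC class II, chemokine and lymphocyte genes (rows) in the histiocytic sarcoma (red diamond) and the 4 sarcomas (blue), with the range of the other 18 tumors as a grey bar. The diamond is right of the sarcomas for IDO1, CCL7, CCL3, CXCL10 and GZMB, and among them for FLT3, CCR7 and CCL2.

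Of 9 cytotoxic lymphocyte genes 4 (44.4%) lay above and 0 below, beside 3.05% and 2.51% of all genes, with a median difference of 2.56, and the list mean was 8.73, against 6.20, 7.30, 5.02 and 5.29. GZMB, a granule protease of killer cells, measured 10.84, against 4.31, 7.87, 4.89 and 5.50. NKG7, a granule protein, measured 10.14, against 6.76, 8.34, 4.99 and 5.64. EOMES, a transcription factor of killer cells, measured 7.90, against 5.82, 4.66, 4.25 and 4.22. GZMA, another granule protease, measured 11.78, against 7.79, 10.91, 5.10 and 6.42, within 1 unit of Sarcoma 1 and 3.99 over the next. Only Lymphoma 5 had a higher mean for this list, at 9.0.

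Of 12 T cell genes 2 lay above (16.7%, beside 3.05% of all genes), CD3D at 11.08, against 9.43, 9.73, 4.23 and 5.18, and LCK at 7.93, against 6.81, 6.91, 5.03 and 4.53. CD3D is a chain of the T cell receptor complex and LCK the kinase that acts just behind it; LCK was within the margin with a pseudocount of 64 (0.85), quantile normalization (0.96) or arrays centred (0.92). The T cell list mean was 8.25, against 7.58, 7.69, 5.40 and 5.56, and 4 other tumors exceeded it. No gene of the 9 in the B cell list or the 8 in the neutrophil list was called, and their median differences were 0.76 and -0.67. S100A8, a calcium-binding protein of neutrophils and monocytes named after its values were seen, measured 8.47, against 12.42, 8.73, 7.57 and 8.09. The part of lymphocytes in the level of genes that they share with myeloid cells, such as PTPRC, CCL3, CCL4 and the class II genes, was not tested.

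Skeletal muscle genes are set apart here because they may come from host muscle in the biopsy. They exceeded every immune list in share above and in median difference: 44 of 73 genes (60.3%) lay above and 0 below, beside 3.05% above over all genes, and the median difference was 2.79. The sarcomere list accounted for 28 of its 37 genes, the metabolism and calcium list for 12 of 23, and the myogenic and immature muscle list for 4 of 13. The mean of the 73 genes was 8.97 in the histiocytic sarcoma, against 5.86, 5.73, 6.37 and 6.09 in the sarcomas, and the HSA came next among the remaining 18, at 6.03. These genes took 1.81% of the summed signal in the histiocytic sarcoma and 0.116% to 0.233% in the sarcomas.

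Myosin heavy chains of the thick filament are the motors of contraction. MYH3, the embryonic myosin heavy chain, measured 13.69 in the histiocytic sarcoma, against 4.85, 5.09, 4.93 and 6.76. MYH7, the heavy chain of slow fibres and heart, measured 11.33, against 5.55, 5.65, 6.77 and 6.27. MYH2, of fast oxidative fibres, measured 12.41, against 5.55, 5.03, 9.54 and 4.57. Embryonic, slow and fast oxidative forms were thus all high in the histiocytic sarcoma. MYH1, of faster fibres, measured 8.91, against 4.54, 5.13, 6.74 and 5.88. MYH4, of the fastest fibres and named after its values were seen, measured 4.33, against 4.19, 4.57, 5.25 and 7.24. All but MYH4 were thus highest of the 23 tumors in the histiocytic sarcoma, and MYH4 was near the floor. Myosin heavy chain genes are close copies, so signal may be shared between their probes, and for MYH7 only 4 of 5 probesets and for MYH1 only 2 of 3 placed the histiocytic sarcoma above the 4 sarcomas.

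Among the light chains, MYL2, the slow and cardiac regulatory chain, measured 14.46, against 4.19, 4.19, 8.00 and 6.78. MYL3, the slow essential chain, measured 12.42, against 4.51, 4.21, 5.39 and 6.66. MYLPF, the fast regulatory chain, measured 12.77, against 6.06, 4.70, 7.69 and 6.25. These 3 chains were at least 5.08 above every other tumor. MYL1, a fast essential chain, measured 13.10, against 7.61, 5.0, 8.54 and 5.42, and was 4.56 above every other tumor.

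Thin filament and scaffold genes were also above the sarcomas. ACTA1, skeletal alpha-actin, measured 13.10, against 6.71, 5.51, 9.31 and 5.90. TTN (titin), the molecular spring, measured 13.07 over 20 probesets, against 5.74, 5.11, 7.68 and 5.52. TNNT3, fast troponin T, measured 11.25, against 4.50, 4.30, 7.31 and 6.55. STS 0 was the highest sarcoma for ACTA1, TTN and TNNT3, as it was for MYH2, MYL2 and MYLPF, but it lay at least 2.87 below the histiocytic sarcoma in each.

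Metabolic and calcium genes of the fibre were also high. MB (myoglobin), the oxygen store, measured 11.37, against 6.04, 5.99, 6.65 and 5.38. PYGM, muscle glycogen phosphorylase, measured 10.30, against 4.73, 4.30, 7.01 and 4.60. RYR1, the calcium release channel, measured 7.56, against 4.77, 6.46, 6.07 and 5.93, and was within the margin with a pseudocount of 64 (0.79), quantile normalization (0.93) or arrays centred (0.99). ATP2A1, the calcium pump of fast fibres, was called above by 1.41, but its 3 probesets disagreed and with the brightest of them the difference from the sarcoma mean was -0.38.

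Genes of immature, regenerating or denervated muscle were split. The acetylcholine receptor subunits CHRNA1 and CHRNG, the second of which belongs to the fetal receptor, measured 8.75, against 6.02, 5.93, 4.21 and 4.61, and 8.14, against 4.38, 4.41, 6.99 and 5.64. DES (desmin), an intermediate filament of all muscle, measured 9.86, against 5.91, 5.91, 6.45 and 5.87. MYL4, a light chain of fetal muscle and atrium, measured 10.02, against 6.07, 8.02, 5.80 and 6.63, and ACTC1, cardiac alpha-actin that fetal skeletal muscle also makes, 9.73, against 5.45, 4.59, 4.28 and 6.02. These genes, and MYH3, were highest of the 23 tumors in the histiocytic sarcoma, but by unequal amounts. CHRNA1 was only 0.08 over a melanoma and CHRNG 0.47 over a lymphoma. The lead over every other tumor was 1.02 for DES, 1.51 for MYL4, 3.72 for ACTC1 and 6.70 for MYH3. CHRNG was within the margin over the sarcomas with a pseudocount of 64 (0.92), quantile normalization (0.99) or arrays centred (0.99). ACTC1 was named after its values were seen.

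The factors that commit cells to the muscle lineage were low. MYOD1 measured 5.14, against 4.34, 4.51, 4.56 and 4.53. MYOG (myogenin) measured 4.78, against 4.96, 4.25, 4.76 and 7.01. MYF5 measured 5.14, against 4.44, 4.48, 4.42 and 5.50. MYOG and MYF5 stayed within the sarcoma range. MYOD1 was 0.58 over the highest sarcoma, and 1.24 over it with a pseudocount of 1. PAX7, of satellite cells, measured 6.38, against 4.37, 4.32, 4.43 and 6.08. It was the highest of 23 tumors by 0.30, and 1.95 over the next sarcoma without STS 1. MYF6, kept in mature fibres, was called above at 5.85, against 4.27 to 4.32, and was within the margin with a pseudocount of 64 (0.63). MYF6 took place 5 of the 23 tumors, with 7.02 in Lymphoma 0 and 6.58 in the HSA. MYOD1, MYOG and MYF5 were thus near the floor of the scale in the histiocytic sarcoma and, except for MYOG and MYF5 in STS 1, in the sarcomas.

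Of 5 heart muscle genes, MYL4 alone was called (20%, beside 3.05% above over all genes). TNNI3, cardiac troponin I, measured 7.90, against 4.83, 7.46, 10.81 and 4.41, and MYL7, the atrial regulatory chain, 6.52, against 5.67, 7.32, 4.92 and 4.48. Both lay inside the sarcoma range. Whether the skeletal muscle signal came from muscle beside or within the tumor, or from the neoplastic cells, was not tested.

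**Figure D4:**
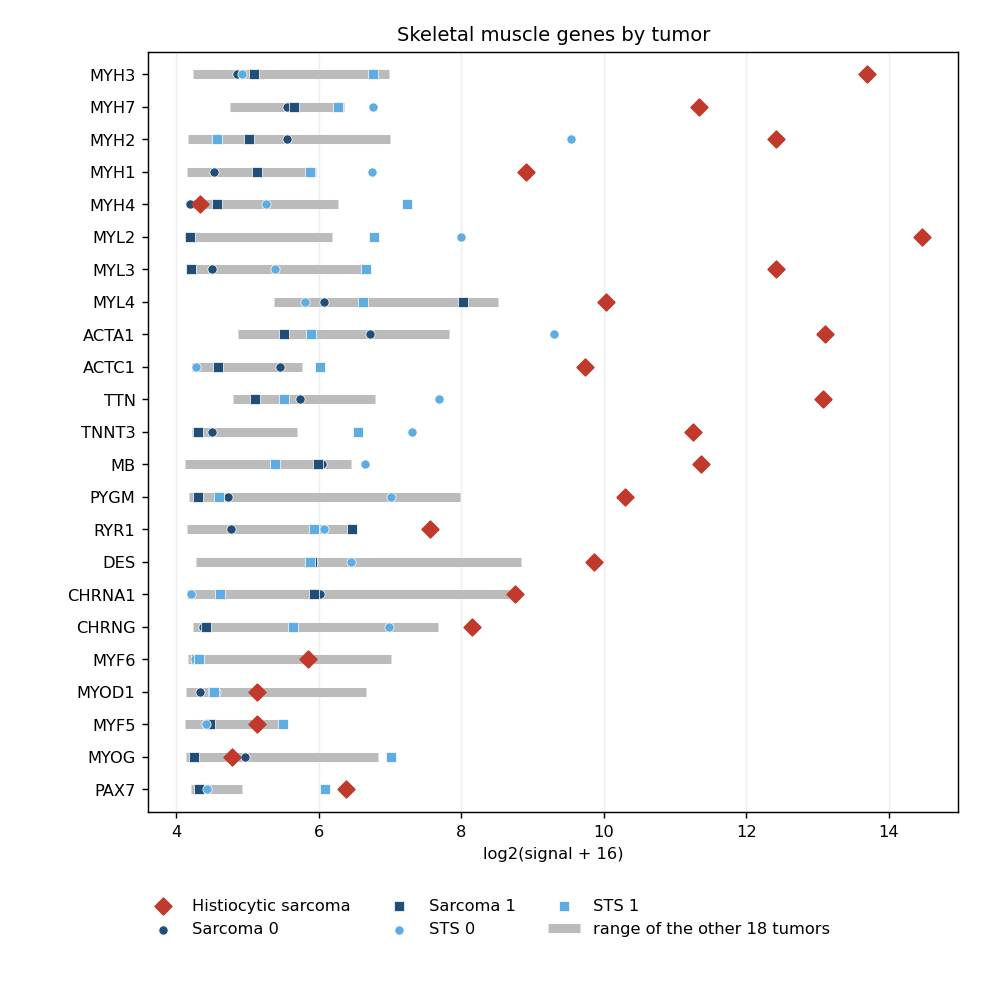
Levels, as log2(signal + 16), of muscle genes (rows) in the histiocytic sarcoma (red diamond) and the 4 sarcomas (blue), with the range of the other 18 tumors as a grey bar. Sarcomere genes such as MYH3, MYL2 and TTN stand alone on the right in the histiocytic sarcoma (13.69, 14.46 and 13.07), while MYH4, MYOD1, MYF5 and MYOG lie near the floor of 4.

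Muscle genes made up most of the genes farthest from the other tumors. Of the 20 genes farthest above the sarcomas, 15 were in the muscle lists, and LMOD3, CAV3 and ANKRD1 are muscle genes outside them; only TREM1 and GTSF1, a germ cell protein of the piRNA pathway, remained. GTSF1 measured 10.79, against 4.91, 5.48, 4.37 and 4.54, and a lymphoma reached 11.16. A set of 42 genes exceeded all 22 other tumors by 2 log2 units or more; of these, 29 were in the muscle lists, 2 in the myeloid lists (ITGAX and C3AR1), and CCL13 was another. With the muscle lists left out, 417 of 15042 genes lay above the sarcomas. The muscle lists hold none of the myeloid genes, so the myeloid counts do not change when they are removed.

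**Figure D5:**
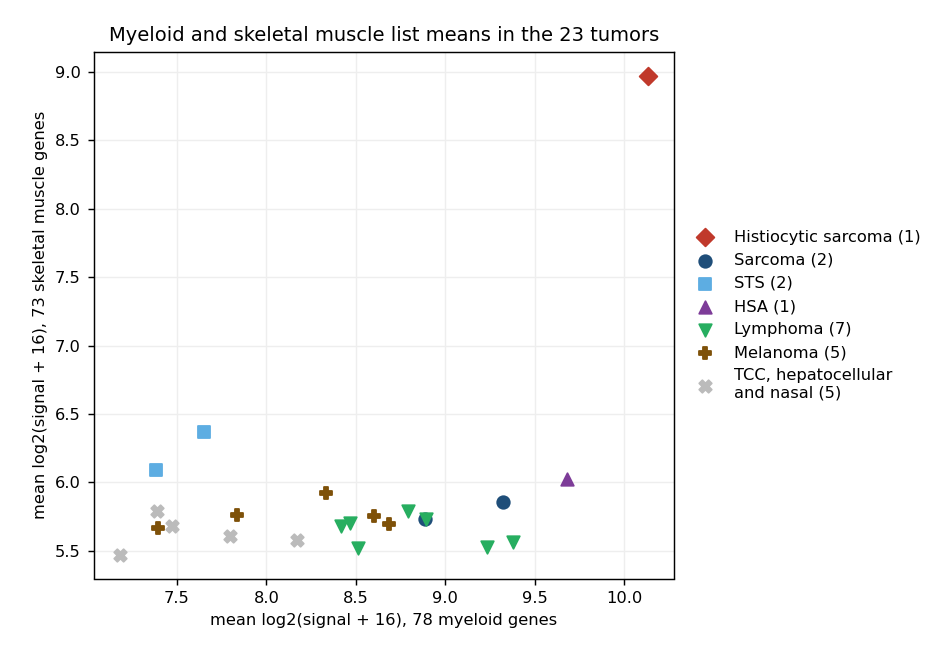
Mean log2(signal + 16) of 78 myeloid genes (horizontal) and 73 skeletal muscle genes (vertical) in each of the 23 tumors, by diagnosis. The histiocytic sarcoma is farthest right (10.13) with the HSA next (9.68), and alone at the top (8.97), where the next tumor is STS 0 (6.37).

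Of 29 matrix and fibroblast genes, 9 (31.0%) lay below the sarcomas and 0 above, beside 2.51% below over all genes, and the median difference was -1.60. The list mean was 9.40, against 10.64, 9.87, 10.76 and 10.70. COL6A1, a chain of the beaded collagen around cells, measured 5.69, against 8.80, 8.29, 8.75 and 9.24. COL6A3, its partner, measured 9.68, against 11.90, 12.05, 12.51 and 13.19. PDGFRA, a growth factor receptor of fibroblasts, measured 8.56, against 11.44, 11.51, 10.58 and 11.30. The others below were COL1A2, COL5A2, SPARC, POSTN, DCN and PRRX1, by 1.05 to 1.44.

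COL1A1, the main chain of fibrillar collagen, measured 11.95, against 14.13, 12.59, 14.83 and 14.78, within 1 unit of Sarcoma 1 and 2.19 under the next lowest. FN1 (fibronectin), which macrophages also secrete, measured 12.04, against 12.01, 7.88, 11.20 and 11.39, level with Sarcoma 0. Matrix genes were not low by the standard of the series: the list mean took place 7 of 23, above that of every lymphoma and of the HSA (7.99).

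Of the 15 genes farthest below, COL6A1 was the only one in a list. CPXM1, a secreted carboxypeptidase-like protein, measured 4.33, against 9.27, 9.52, 10.85 and 10.29. KERA (keratocan), a small proteoglycan of connective tissue, measured 4.76, against 8.28, 9.91, 8.18 and 12.06. LRIG3, a membrane protein that modulates growth factor receptors, measured 5.97, against 8.83, 9.64, 12.02 and 9.67. The 3 were lower in the histiocytic sarcoma than in any sarcoma, with STS 0 or STS 1 the highest. RNF144A, a ubiquitin ligase, measured 5.28, against 8.65, 8.53, 8.69 and 8.33. These genes were chosen as farthest below, so their place under all 4 sarcomas follows from the choice. In CPXM1 and KERA the level in the histiocytic sarcoma was near the floor. Such levels were not particular to it: the lowest of the other 18 tumors was 4.07 for CPXM1, 4.27 for KERA and 4.51 for RNF144A.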

How the data were processed

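The labels give RNA amplified by the NuGEN Ovation Pico system and hybridized to Affymetrix Canine Genome 2.0 arrays. The deposited values are intensity on a linear scale, MAS5 signals that the authors computed per probeset and scaled per array (trimmed mean 500.1 on all 23); software versions are not given in the sources used here. Scaling fixes the overall level of each array, so levels are relative. Detection calls were not used here, and precision is limited by the number of arrays.

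Control probesets aside, the platform annotation gives 1 symbol for 29254 of 42924 probesets, which were used; 439 with several symbols and 13231 that it leaves unnamed were not. Old symbols were kept. Each gene (15115 in all) is the mean of log2(signal + 16) over its probesets, with no filter on low values. The highest correlation between any 2 arrays was 0.927, so no array was counted as a repeat.

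Groups came from the titles, and Sarcoma and STS were joined. The histiocytic sarcoma was called above or below at a margin of 1 log2 unit beyond the range of the 4 sarcomas. No test was possible with 1 tumor. The 28 gene lists hold 593 genes, 490 of them on the annotation. Named genes are each list's defining genes, up to 8 further members farthest beyond the sarcoma range, the 20 genes farthest above and the 15 farthest below the sarcomas, and the 15 farthest above the other 22 tumors; symbols that are only locus numbers were left out. ACTC1, CD5L, S100A8, SIGLEC1, SLC40A1 and SPIC, and the few other genes marked so, were named after their values were seen. The members and lists were chosen with earlier results of these data known. Alternatives were another pseudocount (1 or 64), quantile normalization, centring of arrays, the brightest probeset per gene, a filter, other margins and other sets of sarcomas. Python 3.11.15, numpy 2.4.6, pandas 2.3.3 and matplotlib 3.10.9 were used.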

Additional observations from a re-analysis of the deposited data

Results flagged for a closer look

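A single sarcoma lay far from the other 3 in 10 of 161 groups of 4 values looked at, and chance flags about 1 in 20 such groups. Among muscle genes, MYH3 was 6.76 in STS 1 with the next sarcoma at 5.09, MYF5 5.50 in STS 1 with the next at 4.48, and PAX7 6.08 in STS 1 with the next at 4.43. DES was 6.45 in STS 0 with the next at 5.91, and PYGM 7.01 in STS 0 with the next at 4.73. Except in MYF5, the histiocytic sarcoma was above these single high values too.

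Among macrophage genes, MRC1 was low in STS 1, at 9.54 with the next sarcoma at 11.66, MERTK was low in STS 0, at 6.14 with the next at 7.10, and CD5L was high in Sarcoma 1, at 10.82 with the next at 5.59. The mean of the matrix list was low in Sarcoma 1, at 9.87 with the next at 10.64, and that of the 2 erythroid genes was high in STS 1, at 6.79 with the next at 5.95. The part of these single tumors in the calls shows where each sarcoma is left out, given with the dependence on processing.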

How the results depend on the processing

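The 44 skeletal muscle genes above the sarcomas were 36 to 56 under every alternative listed at the outset and 40 against all 22 other tumors, an alternative chosen after seeing the data. The other counts moved by more than 1.5 times in the settings that follow. With a pseudocount of 1 the genes below numbered 777, and with 64 there were 263 above and 133 below. With the brightest probeset per gene, 3 class II genes lay above. A margin of 2 units gave 112 genes above, 55 below, 6 myeloid, 1 dendritic and 0 class II above and 3 matrix below; no margin gave 2981, 3144, 60, 12, 8 and 15. Leaving out each sarcoma gave 570 to 807 genes above, 565 to 622 below, 28 to 50 myeloid and 5 to 8 class II. Beside the 2 STS tumors alone, 1449 genes lay above and 1084 below, with 63 myeloid, 14 dendritic and 10 class II above and 15 matrix below; beside the 2 tumors titled Sarcoma, 889 and 1012. Against all 22 other tumors, 88 lay above and 10 below, with 9 myeloid, 1 dendritic and 1 class II above and 0 matrix below. Fewer tumors, or other margins, change these counts by construction.

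Of 1716 pairs of a named gene and a setting, 1608 moved the difference from the sarcoma mean by less than the SD of the sarcomas. With the brightest probeset the difference of ATP2A1 turned to -0.38. Against the mean of all 22 others, COL1A2 (0.43), COL6A3 (0.66), DCN (1.92), POSTN (0.44) and PRRX1 (1.14) turned positive. Calls of named genes were lost under centring (C1QC at 0.91, and AURKB, CHRNG, FSCN1, LCK, RYR1 and SMTN), quantile normalization (AURKB, CHRNG, ESAM, LCK, RYR1 and SMTN), a pseudocount of 64 (these 6 and ABCG1, CCL16, CD1C, FSCN1 and MYF6) or the brightest probeset (ABCG1, ATP2A1, CD80, DLA-DMB, DLA-DQA1, SMTN and SPARC). CSF1R and AIF1 passed the margin with arrays centred, at 1.18 and 1.17, and ITGB2 with arrays centred (1.10), quantile normalization (1.0) and the brightest probeset (2.19); MYOD1 passed it with a pseudocount of 1 (1.24). The cause of these shifts was not tested. No paired analysis was possible because the histiocytic sarcoma is 1 tumor and the numbers in the titles only name tumors. The comparison of promoter sequences that had been planned was not run. Signals near the floor of 4 carry little information, so low levels have no order.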

Other observations

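For gene groups outside the report's comparisons, the counts that follow stand beside 3.05% above and 2.51% below over all genes. Of 24 proliferation genes 1 (4.17%) lay above the sarcomas and 0 below, a share about that of all genes, with a median difference of 0.52. It was AURKB, a mitotic kinase, at 8.90 in the histiocytic sarcoma, against 7.45 in Sarcoma 0, 7.89 in Sarcoma 1, 7.87 in STS 0 and 7.76 in STS 1. Its call was lost with a pseudocount of 64 (0.88 over the highest sarcoma), quantile normalization (0.91) and arrays centred (0.86). The proliferation list mean was 9.13, place 14 of 23. Of 14 endothelial genes 2 (14.3%) lay below and 0 above, with a median difference of 0.17. EGFL7, a secreted vessel protein, measured 4.96, against 7.35, 7.08, 6.92 and 7.0. ESAM, a junction protein, measured 4.36, against 6.53, 5.46, 6.18 and 6.85. ESAM was no longer called with a pseudocount of 64 (0.42 under the lowest sarcoma) or quantile normalization (0.98). Of 9 smooth muscle genes only SMTN was called, below the sarcomas. That call was lost with a pseudocount of 64 (0.50 under the lowest sarcoma), quantile normalization (0.89) and arrays centred (0.96), and with the brightest probeset SMTN lay inside the sarcoma range.

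Of 15 interferon response genes 2 lay above, GBP1 at 12.86, against 9.16, 9.50, 6.97 and 6.17, and GBP5 at 12.21, against 9.13, 8.98, 5.48 and 5.47; both encode interferon-induced GTPases of a family of close copies, and a lymphoma was slightly higher in each. Of 35 cytokine and innate sensor genes 3 (8.57%) lay above, with a median difference of 0.90. NLRP3, the inflammasome sensor, measured 9.62, against 7.12, 6.33, 6.37 and 6.73; CSF2 and TLR1 were above by 1.51 and 1.07. IL1B, the cytokine that the inflammasome matures, was named after its values were seen and measured 5.17, against 5.21, 5.40, 4.36 and 5.01.

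Of 30 tumor suppressor and growth signaling genes 2 lay above and 1 below, with a median difference of -0.01. LYN, a kinase of myeloid and B cells, measured 11.65, against 10.25, 10.26, 7.56 and 8.82. MERTK, a receptor by which macrophages clear dying cells, measured 8.67, against 7.29, 7.10, 6.14 and 7.14. DDR2, a collagen receptor of fibroblasts, was below at 6.62, against 8.11, 9.70, 9.11 and 10.29. CDKN2B and RB1, whose losses are known in canine histiocytic sarcoma, measured 4.34, against 4.18, 4.95, 4.41 and 5.03, and 9.68, against 10.11, 8.77, 10.09 and 8.51, both within the range. CDKN2B lay near the floor of 4 in the histiocytic sarcoma, as did the median of the other 18 tumors (4.30), so its level says little about loss. No gene was called in the osteoclast (6 genes), mast cell (5), adipocyte (9), erythroid (2) or epithelial (7) lists.

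Over all genes, the z-scored profile of the histiocytic sarcoma correlated with that of the HSA and of Lymphoma 5 at r = 0.091 each, of Sarcoma 0 at 0.071, of Sarcoma 1 at 0.062, of STS 0 at -0.033 and of STS 1 at -0.045. The z-scores are over 23 tumors and the points are 15115 genes that share arrays, so these values describe an order only.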
